A study of Mus musculus with 6 samples.

Results

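Integrin and tetraspanin transcripts were followed in cultured mouse lung endothelial cells exposed to tumour vesicles. Members were the gene symbols that begin with Itga, or with Itgb followed by 1 digit, and the numbered Tspan genes together with Cd9, Cd37, Cd63, Cd81, Cd82 and Cd151. In the authors' filtered table, 43 of 13098 genes met this rule, 21 of them integrins and 22 tetraspanins. The raw table of 30055 genes held 52 such symbols, and the 9 that were outside the filtered table were Itgad, Itgae, Itgal, Itgax, Itgb6, Cd37, Tspan1, Tspan10 and Tspan32.

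All cells came from C57BL6 mice that lacked Ch25h, the gene of cholesterol 25-hydroxylase, and that were 3 weeks old and labelled female. The vehicle group received PBS. The TEV group received extracellular vesicles of MC38 mouse colorectal tumour cells at 20 µg per ml for 12 h, and the TEV plus reserpine group received reserpine at 10 µM for 8 h before the same vesicles. Reserpine is a blocker of vesicular monoamine transporters. Each group held 2 libraries, and nothing in the labels says whether these came from separate mice or cultures, so p-values measure only the spread between these libraries. The 6 libraries included none of Ch25h-positive cells and none of reserpine without vesicles.

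Integrins are paired receptors of an alpha and a beta chain that bind matrix proteins or ligands on other cells and tie them to the actin cytoskeleton. The beta1 chain pairs with many alpha chains for collagen, laminin and fibronectin, whereas the beta3 and beta5 chains pair with alphav for vitronectin and other ligands with an RGD sequence. Tetraspanins are small proteins that cross the membrane several times and gather integrins, proteases and other receptors into patches, and Cd9, Cd63 and Cd81 are also known as constituents of extracellular vesicles.

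Depth ranged from 22270657 to 81225627 estimated counts per library. Levels are given in CPM, counts scaled to the library totals with edgeR's TMM factors, and changes as log2 values ± SE from edgeR's quasi-likelihood test over 15035 genes. The SE was taken as the absolute change divided by the square root of the test's F value. A change was called at an adjusted p under 0.05. A total of 3 counts corresponded to 0.0369 to 0.135 CPM, depending on the library. The members together held 0.691% to 0.757% of all counts in a library. The sum of 10 endothelial markers, among them Pecam1, Cdh5 and Kdr, was 4345 to 4388 CPM in vehicle, 8012 to 8155 CPM in TEV and 8509 to 8544 CPM in TEV plus reserpine, and all 10 had counts in all 6 libraries. With TEV, 6 of the 10 were higher than in vehicle and 4 were lower. In bulk RNA, a larger endothelial share cannot be told apart from more transcript per cell, and its part in any member's rise was not tested. Markers of fibroblasts and of pericytes and smooth muscle were also present in vehicle, and their values are given below.

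The beta1 chain was the most abundant member in vehicle. Per kb of transcript, which allows genes to be compared, the mean level of Itgb1 was 611 CPM per kb. Cd63 followed at 396, Cd81 at 343, Itga5, the fibronectin receptor chain, at 184, Cd151 at 167 and Cd9 at 138 CPM per kb. The lowest were Itgb8 at 0.294, Tspan33 at 0.306 and Itgam at 0.382 CPM per kb. Of the 43 members, 36 exceeded 1 CPM in both libraries of all 3 groups. Tspan11, Itgb7, Itga11, Itgam, Itgb8 and Itga7 did so in vehicle alone and Tspan33 in TEV alone. These 7 members could enter the filtered table through the group in which they were high, so a difference from the other groups was favoured by the way members were chosen.

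**Figure D1:**
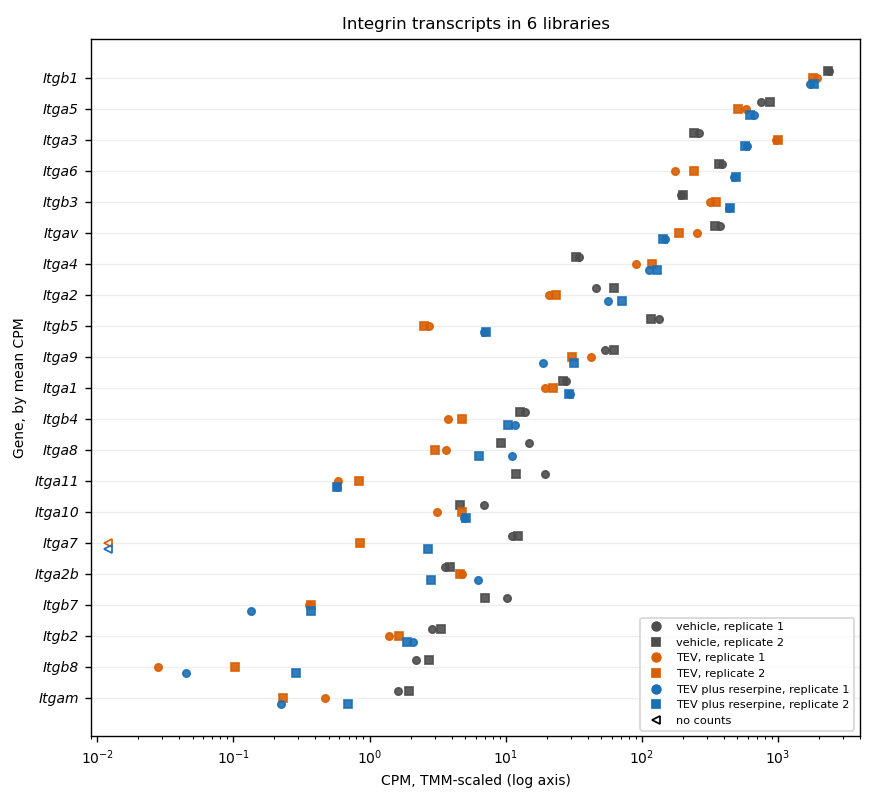
Level of each of the 21 integrin transcripts in each of the 6 libraries, in CPM on a log axis, with colours for groups and shapes for replicates. Itgb1 is the highest on this scale, and Itgb5, Itga11, Itgb7 and Itgb8 lie far lower in all 4 vesicle libraries than in vehicle.

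The first comparison asked what the vesicles alone changed. Most integrin transcripts were lower with TEV than with vehicle. Of the 21 integrins, 15 fell (71.4%) and 3 rose (14.3%), against 24.6% lower and 25.1% higher over all 15035 genes tested. Members came from the filtered table, and a fit of its 13098 genes alone called 3488 lower and 3628 higher. Called falls of at least 2-fold were found for 10 integrins and 4 tetraspanins (14.0% of all genes) and rises of that size for 2 and 3 (8.95%). These counts include the members that passed through a single group. Without those, 10 of 16 integrins fell and 3 rose (median -0.61), and 6 of 20 tetraspanins fell and 8 rose, where leaving them out itself takes away falls. Called falls of at least 2-fold were then left for 5 integrins and 3 tetraspanins, and rises of that size for 2 and 2. The median change of all 21 integrins was -0.87, and the median over all genes was 0.01. Tetraspanins moved in both directions, with 9 of 22 higher (40.9%), 7 lower (31.8%) and a median of 0.10. The libraries of the 2 groups did not overlap for 37 of the 43 members, against 78.9% of all genes that did not overlap. Scaled by library totals alone, without TMM factors, the median of all genes became -0.11 and the higher share of all calls went from 50.5% to 39.8%. The members then gave 3 higher and 16 lower integrins, and 7 higher and 7 lower tetraspanins. Without vehicle replicate 1 the count of higher tetraspanins was 4, and without vehicle replicate 2 it was 5.

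The collagen receptor alpha chains were lower in 3 of 4 cases. Itga11, a collagen receptor chain best known from fibroblasts, read 19.3 and 11.8 CPM in vehicle and 0.583 and 0.840 CPM with TEV, and fell 21.3-fold (-4.42 ± 0.33, adjusted p = 0.000103). Itga2 read 46.2 and 62.85 CPM in vehicle and 20.6 and 23.5 CPM with TEV, a change of -1.30 ± 0.18 (adjusted p = 0.00136). Neither gene's TEV libraries overlapped those of vehicle. Itga1, the other widely expressed collagen chain, fell by less (-0.37 ± 0.11, adjusted p = 0.0288), and Itga10, at 3.14 to 6.94 CPM over the 6 libraries, was not called (adjusted p = 0.154).

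Among the laminin receptor chains, the 2 main alpha chains moved in opposite directions. Itga3 read 261 and 241 CPM in vehicle and 966 and 991 CPM with TEV, a rise of 3.90-fold (1.96 ± 0.08, adjusted p = 9.82e-06). Itga6, the alpha6 chain, read 386 and 369.7 CPM in vehicle and 174 and 240.4 CPM with TEV (-0.87 ± 0.15, adjusted p = 0.00302). Every TEV library was above vehicle for Itga3 and below it for Itga6. Their ratio within a library, per kb, was 0.601 and 0.577 in vehicle and 4.93 and 3.66 with TEV. Itgb4, the partner of alpha6 in hemidesmosomes, read 13.9 and 12.7 CPM in vehicle and 3.75 and 4.79 CPM with TEV (-1.63 ± 0.18, adjusted p = 0.000464). Itga7, a laminin receptor chain of muscle and mural cells, read 11.1 and 12.3 CPM in vehicle. With TEV, its estimated count was 4.85e-07 in replicate 1, which rounded to 0, and its level was 0.853 CPM in replicate 2. Its TEV libraries were both below vehicle but unlike each other (-4.57 ± 1.43, adjusted p = 0.035), and without TEV replicate 1 the change was -3.76. Itga7 overlaps Mettl7b on the opposite strand, and since no source used here says whether the libraries were stranded, reads within the shared stretch cannot be assigned to either.

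The RGD-binding chains held the steepest fall of an integrin and also a rise. Itgb5 read 134 and 117.5 CPM in vehicle and 2.75 and 2.51 CPM with TEV, 48.1-fold lower (-5.59 ± 0.13, adjusted p = 2.18e-06). Itgb3, which shares the alphav partner with Itgb5, read 192 and 201 CPM in vehicle and 319 and 353 CPM with TEV (0.77 ± 0.08, adjusted p = 0.000397). The libraries of the 2 groups were apart for both genes, in opposite directions. Per kb, the ratio of Itgb5 to Itgb3 went from 1.22 and 1.03 in vehicle to 0.0152 and 0.0125 with TEV. Itgav, their common alpha chain, read 374 and 344 CPM in vehicle and 255 and 187 CPM with TEV (-0.70 ± 0.14, adjusted p = 0.00687).

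Itga5, which with beta1 forms the main fibronectin receptor, read 746 and 866 CPM in vehicle and 579 and 508 CPM with TEV (-0.57 ± 0.10, adjusted p = 0.00437). Itga8, an RGD-binding chain known from mesenchymal cells, read 14.7 and 9.26 CPM in vehicle and 3.66 and 3.03 CPM with TEV (-1.85 ± 0.33, adjusted p = 0.00409). For both, the lowest vehicle library was above the highest TEV library. Itgb8, known for activating latent TGF-beta, read 2.18 and 2.75 CPM in vehicle and 0.0278 and 0.102 CPM with TEV, 32.2-fold lower (-5.01 ± 0.76, adjusted p = 0.00194). Its value in TEV replicate 1 lay under the level of 3 counts, and without TEV replicate 2 the change was -6.29. Itga2b, the platelet alpha chain, read 2.81 to 6.21 CPM and was not called (adjusted p = 0.48).

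Itgb1 read 2353 and 2309.9 CPM in vehicle and 1946 and 1806 CPM with TEV, a small fall (-0.31 ± 0.07, adjusted p = 0.0109). Itga4, whose product binds VCAM1 and fibronectin, rose 3.09-fold, from 34.7 and 32.6 CPM in vehicle to 90.2 and 118 CPM with TEV (1.63 ± 0.15, adjusted p = 0.00022). Both TEV libraries were above both vehicle libraries, and the gene overlaps Cerkl on the opposite strand. Itga9, the relative of alpha4, read 53.1 and 61.9 CPM in vehicle and 42.3 and 30.7 CPM with TEV and was not called (-0.66 ± 0.26, adjusted p = 0.0701), although 7 of 13 alternative settings called it, with adjusted p between 0.0164 and 0.276.

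The 3 leukocyte chains among the members were low in vehicle and fell. Itgb7, the partner of alpha4 in lymphocyte homing, read 10.2 and 7.03 CPM in vehicle and 0.361 and 0.369 CPM with TEV, 23.4-fold lower (-4.55 ± 0.41, adjusted p = 0.000231). Itgam, the alphaM chain of macrophages and neutrophils, read 1.63 and 1.95 CPM in vehicle and 0.472 and 0.229 CPM with TEV (-2.39 ± 0.60, adjusted p = 0.0153). Itgb2, the common leukocyte beta chain, read 2.86 and 3.34 CPM in vehicle and 1.39 and 1.64 CPM with TEV (-1.02 ± 0.27, adjusted p = 0.0173). The groups did not overlap for any of the 3 genes. Itgb7 and Itgam exceeded 1 CPM in both libraries of vehicle alone, so their fall was favoured by the way members were chosen. Of the leukocyte chains outside the filtered table, Itgae (1.39 ± 0.60, adjusted p = 0.0956) and Itgal (0.82 ± 0.60, adjusted p = 0.295) were not called. Itgad and Itgax were not tested. The sum of 9 macrophage and leukocyte markers was 48.9 to 59.9 CPM in vehicle and 21.7 to 22.2 CPM with TEV, with 3 of 6 tested markers lower and 1 higher. Cd3e had no counts in any vehicle or TEV library.

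Some of the members that fell with TEV are known from mesenchymal cells, and markers of those cells fell in the same comparison. The sum of 10 fibroblast markers was 2847 to 3278 CPM in vehicle and 55.4 to 65.0 CPM with TEV, and 9 of 9 tested fell. Tcf21 had no counts in either TEV library. The fibroblast sum was 79.8 to 97.5 CPM with TEV plus reserpine. In that group Itga11 read 0.581 and 0.574 CPM, whereas Itga8 read 11.03 and 6.34 CPM and was not called against vehicle. The sum of 10 pericyte and smooth muscle markers was 1999 to 2022 CPM in vehicle and 782 to 891 CPM with TEV, and again 9 of 9 tested fell, with Cspg4 at no counts in the TEV libraries. Of 5 mesothelial markers, 4 fell with TEV, Msln to no counts in either TEV library, and Krt19 rose. Their sum was 29.2 to 32.6 CPM in vehicle, 28.7 to 30.5 CPM with TEV and 12.7 to 13.6 CPM with TEV plus reserpine, where 4 of the 5 were called lower than in vehicle. In bulk RNA, fewer cells of a type and less RNA per cell cannot be told apart. The part of these cells in the fall of Itga11, Itga8, Itga7, Itgb5 or any other member was not tested.

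**Figure D2:**
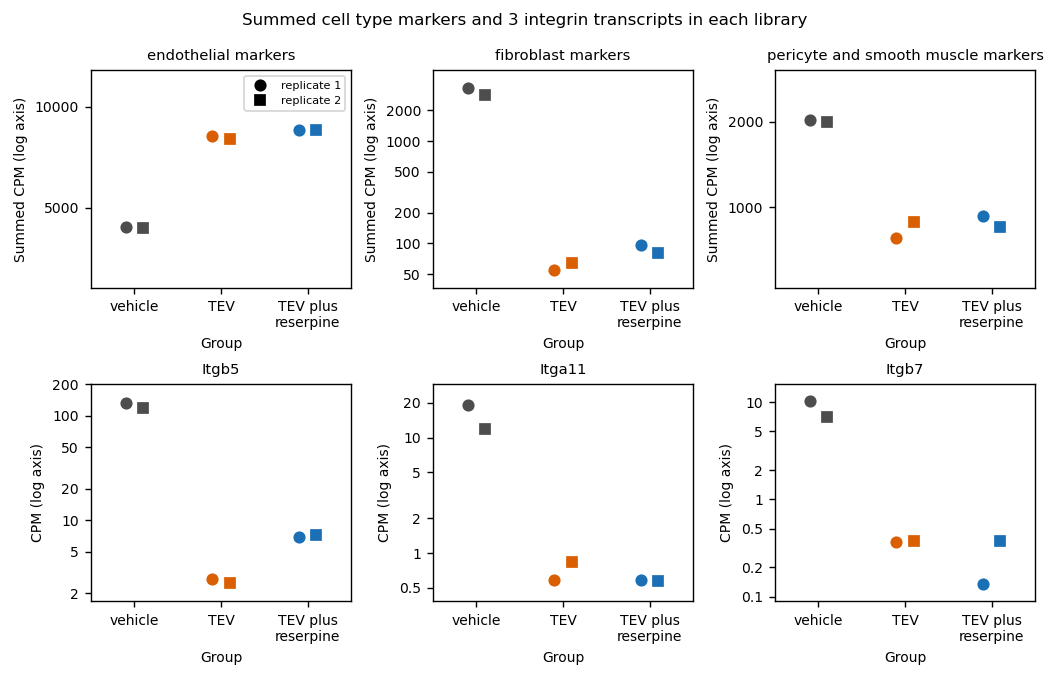
Summed CPM of endothelial, fibroblast, and pericyte and smooth muscle markers, and CPM of Itgb5, Itga11 and Itgb7, in each library on log axes. The fibroblast sum drops from at least 2847 CPM in vehicle to at most 97.5 CPM in the vesicle libraries, and the 3 integrin transcripts are below vehicle in those same libraries.

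Among the tetraspanins with CD names, shifts with TEV were small. Cd81, a partner of several integrins, read 534 and 519 CPM in vehicle and 391 and 465 CPM with TEV (-0.30 ± 0.09, adjusted p = 0.037). Cd82, first known as a metastasis suppressor, read 29.7 and 43.1 CPM in vehicle and 56.2 and 49.8 CPM with TEV (0.55 ± 0.17, adjusted p = 0.0376). Both called changes were under 2-fold, with no overlap between groups. Cd63, an endosomal and vesicle tetraspanin, read 433 and 445 CPM in vehicle and 538 and 445.5 CPM with TEV (0.17 ± 0.10, adjusted p = 0.222). Cd151, the close partner of the laminin-binding integrins, read 309 and 314 CPM in vehicle and 289.5 and 321 CPM with TEV (adjusted p = 0.808). Cd9 read 159.9 and 179.8 CPM and 186 and 167 CPM in the same groups (adjusted p = 0.667). These 3 genes were not called, with vehicle and TEV values that nearly touched for Cd63 and overlapped for the others.

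Changes of several-fold were found among the numbered tetraspanins. Tspan6, described as an inhibitor of MAVS signalling, read 85.0 and 78.9 CPM in vehicle and 465 and 376 CPM with TEV, a rise of 5.13-fold (2.36 ± 0.12, adjusted p = 2.24e-05). Tspan8, known from tumour vesicles and angiogenesis, read 11.45 and 11.9 CPM in vehicle and 23.2 and 26.9 CPM with TEV, 2.15-fold higher (1.10 ± 0.12, adjusted p = 0.000453). Both were higher in both TEV libraries than in either vehicle library. Tspan12, a co-receptor of Norrin and FZD4 in retinal vessels, rose by less than 2-fold (0.57 ± 0.14, adjusted p = 0.0124).

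Tspan9 read 278 and 276 CPM in vehicle and 379.9 and 383 CPM with TEV (0.46 ± 0.07, adjusted p = 0.00157). Tspan4, a tetraspanin of migrasomes, read 105 and 95.1 CPM in vehicle and 119 and 137 CPM with TEV (0.36 ± 0.11, adjusted p = 0.0305). Tspan31 read 102 and 103.5 CPM in vehicle and 139 and 127 CPM with TEV (0.37 ± 0.08, adjusted p = 0.00877). These rises were small beside that of Tspan6, and no TEV library of the 3 genes was as low as vehicle. Tspan4 overlaps Chid1 and Tspan31 overlaps Cdk4, each on the opposite strand, so reads within a shared stretch cannot be assigned here.

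Several numbered tetraspanins fell. Tspan18, a tetraspanin linked to calcium entry in endothelial cells, read 129.96 and 126 CPM in vehicle and 11.8 and 18.7 CPM with TEV, 8.28-fold lower (-3.05 ± 0.20, adjusted p = 6.4e-05). Tspan13 read 26.1 and 24.5 CPM in vehicle and 3.47 and 4.02 CPM with TEV, 6.72-fold lower (-2.75 ± 0.14, adjusted p = 2.4e-05). Both genes lost most of their transcript level in both TEV libraries. Tspan7 read 40.7 and 38.9 CPM in vehicle and 8.38 and 8.80 CPM with TEV, 4.63-fold lower (-2.21 ± 0.11, adjusted p = 2.15e-05). Tspan11 read 22.7 and 27.1 CPM in vehicle and 0.0278 and 0.0382 CPM with TEV, where 4 rounded counts remained over both libraries (-9.36 ± 0.30, adjusted p = 1.43e-05). The value of Tspan11 lay under the level of 3 counts in TEV replicate 1 and near it in TEV replicate 2. The size of its fall thus rests on very few reads, and its SE understates their counting error. Tspan3, at 112 and 116 CPM in vehicle and 123 and 113 CPM with TEV, was not called (adjusted p = 0.632). Tspan2, at 16.5 to 20.4 CPM over all libraries, was not called in any comparison.

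The C8 subgroup of tetraspanins, which escort the protease ADAM10 to the cell surface, gave 2 higher and 2 lower members out of 5, a count too small to set against the shares of all genes. Tspan5 read 44.75 and 35.4 CPM in vehicle and 69.8 and 69.4 CPM with TEV (0.79 ± 0.12, adjusted p = 0.00217), and Tspan33 read 0.557 and 0.662 CPM and 1.53 and 1.64 CPM (1.38 ± 0.36, adjusted p = 0.0183). Tspan15 (-0.83 ± 0.17, adjusted p = 0.007) and Tspan17 (-0.78 ± 0.14, adjusted p = 0.00397) fell. Tspan33 was low in all groups. Tspan14, at 52.95 and 61.3 CPM in vehicle and 50.1 and 76.6 CPM with TEV, was not called (adjusted p = 0.641). Adam10 itself read 362 and 344 CPM in vehicle and 506 and 377 CPM with TEV and was not called (adjusted p = 0.106).

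**Figure D3:**
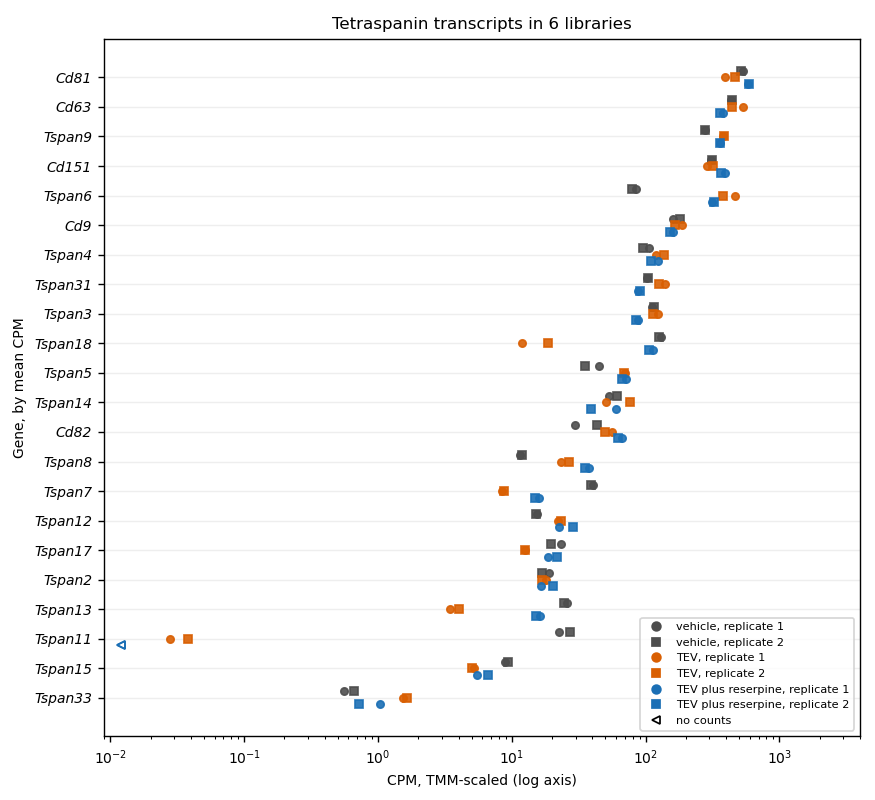
Level of each of the 22 tetraspanin transcripts in each of the 6 libraries, in CPM on a log axis, with open symbols at the left edge for libraries without counts. Tspan6 is higher in all 4 vesicle libraries than in vehicle, Tspan18 and Tspan13 are lowest with TEV alone, and Tspan11 is at or near no counts in all 4 vesicle libraries.

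Of the 34 members called in this comparison, 23 were called whichever single library was left out. The call of Cd81 ended without any 1 of 5 libraries, all but TEV replicate 2, at adjusted p from 0.0598 to 0.175. That of Cd82 ended without any library but vehicle replicate 2 (0.0572 to 0.145). Itga1 was not called without either vehicle library, TEV replicate 1 or TEV plus reserpine replicate 1 (0.053 to 0.147), and Tspan33 without any vehicle or TEV library (0.0546 to 0.102). Tspan12 and Tspan4 were not called without either vehicle library or TEV replicate 2 (0.052 to 0.0618 and 0.0599 to 0.168), and Itga7 without either vehicle library or TEV replicate 1 (0.0775 to 0.0953). Itgam lost its call without vehicle replicate 2 or TEV replicate 2 (0.0629 and 0.0823), and Itgb2 without vehicle replicate 2 or TEV replicate 1 (0.0905 and 0.0812). Tspan31 lost it without either vehicle library (0.0625 without the first and 0.0502 without replicate 2), and Itgb1 without vehicle replicate 1 (0.0525).

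Promoter sequence was read for 4 of the members with steep changes, Itgb5 and Tspan13 that fell and Itga3 and Tspan6 that rose. The start regions of genes that moved in opposite directions can thus be set side by side. Other members fell further than Tspan13 and are not shown, among them Tspan11, Itgb8, Itga7, Itgb7, Itga11 and Tspan18. The RefSeq table of GRCm38.p6 had an entry for 37 of the 43 members, and Tspan18 was among those without one. Each sequence is the 250 bases before the start, 5′ to 3′ on the gene's strand, with the motifs searched in capitals. Those were the GC box GGGCGG, the ETS core CCGGAA, the AP-1 motif TGANTCA and the TATA box TATAAA, each on both strands and none overlapping another in these windows. The windows lie at chr16:33829415-33829664 on the plus strand (Itgb5), chr12:36042479-36042728 on the minus strand (Tspan13), chr11:95076715-95076964 on the minus strand (Itga3, the more upstream of 2 starts) and chrX:133898430-133898679 on the minus strand (Tspan6).
Itgb5: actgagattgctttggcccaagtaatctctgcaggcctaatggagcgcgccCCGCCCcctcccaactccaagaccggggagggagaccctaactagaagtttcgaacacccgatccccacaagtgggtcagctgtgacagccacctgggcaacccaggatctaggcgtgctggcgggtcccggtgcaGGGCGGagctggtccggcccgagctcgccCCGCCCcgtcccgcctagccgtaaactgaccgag
Tspan13: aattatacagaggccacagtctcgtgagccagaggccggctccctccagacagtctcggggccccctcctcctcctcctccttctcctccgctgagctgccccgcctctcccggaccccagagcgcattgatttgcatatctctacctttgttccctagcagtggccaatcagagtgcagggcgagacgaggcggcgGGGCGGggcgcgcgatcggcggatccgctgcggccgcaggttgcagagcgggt
Itga3: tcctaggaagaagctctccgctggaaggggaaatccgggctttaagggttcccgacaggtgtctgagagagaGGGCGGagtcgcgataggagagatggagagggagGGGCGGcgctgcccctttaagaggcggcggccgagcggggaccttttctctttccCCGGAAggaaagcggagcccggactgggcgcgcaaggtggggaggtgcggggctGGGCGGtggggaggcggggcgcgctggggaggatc
Tspan6: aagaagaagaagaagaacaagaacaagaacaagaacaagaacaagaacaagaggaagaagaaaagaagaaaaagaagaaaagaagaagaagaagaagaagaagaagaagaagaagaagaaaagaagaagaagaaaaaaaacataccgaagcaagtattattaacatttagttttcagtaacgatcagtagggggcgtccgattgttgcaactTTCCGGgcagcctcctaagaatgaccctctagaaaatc
The Itgb5 window held 3 GC boxes, that of Tspan13 held 1, and that of Itga3 held 3 together with 1 ETS core. The Tspan6 window held 1 ETS core and no GC box, and its base composition was 36.0% G and C, against 65.2% for Itgb5, 66.0% for Tspan13 and 67.6% for Itga3. Over all 32851 promoter windows, the GC box was found in 32.7%, the ETS core in 12.0%, the AP-1 motif in 6.75% and the TATA box in 12.4%. The 37 member genes had 48 windows, and of these 21 held a GC box, 5 an ETS core, 1 an AP-1 motif and 1 a TATA box.

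Genes that work with the members were counted from lists of adaptors and kinases, matrix ligands, counter-receptors on other cells, and tetraspanin partners. Over all genes, 25.1% were higher and 24.6% lower with TEV. With TEV, 15 of 34 adaptors and kinases rose (44.1%) and 10 fell (29.4%, median 0.20). Actn4, an actin crosslinker of adhesion sites, rose (0.46, adjusted p = 0.00245), its relative Actn1 fell (-0.34, adjusted p = 0.0126), and Tln1, the talin that activates integrins, was not called (adjusted p = 0.102). Of 25 matrix ligands, 3 rose and 15 fell (60% lower, median -1.24), and 3 of its collagens (Col1a1, Col1a2, Col3a1) are also among the fibroblast markers. Thbs1, a ligand of alphav and beta1 integrins, fell (-1.31, adjusted p = 0.000347), Tnc rose (0.52, adjusted p = 0.00328), and Fn1, the ligand of alpha5, was not called (adjusted p = 0.0729).

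Of 10 counter-receptors, 4 rose (40%) and 2 fell (20%, median 0.05). Vcam1, the cell-surface ligand of alpha4, fell (-2.45, adjusted p = 0.000855), whereas Icam1, the ligand of the leukocyte beta2 integrins, rose (2.14, adjusted p = 0.00192). Of 19 tetraspanin partners and clients, 4 rose (21.1%) and 9 fell (47.4%, median -0.33). Sdcbp, the syntenin of exosome formation, rose (0.68, adjusted p = 0.00156), as did Pdcd6ip, its partner ALIX (0.45, adjusted p = 0.00862).

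The second comparison asked what changed when reserpine preceded the vesicles, and it shares the TEV libraries with the first. Of the 21 integrins, 7 were higher with TEV plus reserpine than with TEV alone (33.3%) and 2 were lower (9.52%), against 15.7% higher and 16.0% lower over all genes. The fit of the 13098 genes of the filtered table called 2368 higher and 2420 lower. Called rises of at least 2-fold were found for 5 integrins and 2 tetraspanins (5.61% of all genes), and no member fell that far (5.14%). The libraries of the 2 groups did not overlap for 30 of the 43 members, against 70.7% of all genes that did not overlap. The integrin median was 0.38 and that of all genes 0.00. Of the 22 tetraspanins, 7 were higher (31.8%) and 4 lower (18.2%), with a median of 0.04. Without the members that passed through a single group, 7 of 16 integrins were higher and 2 lower (median 0.36). Of 20 tetraspanins, 7 were then higher and 4 lower (median 0.13). Most of those left out had passed through vehicle, a group not compared here. With library totals alone the higher share of all calls went from 49.5% to 59.4%. The counts over all 43 members were then 7 and 2 for integrins and 7 and 3 for tetraspanins. Without TEV replicate 1 the counts were 4 higher and 1 lower integrins and 3 higher and 2 lower tetraspanins. Without TEV plus reserpine replicate 1 they were 4 and 1, and 4 and 2, and without TEV plus reserpine replicate 2 the tetraspanins gave 3 and 2.

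Several receptor chains for collagen and laminin were higher. Itga2 read 20.6 and 23.5 CPM with TEV and 56.4 and 70.8 CPM with TEV plus reserpine (1.53 ± 0.18, adjusted p = 0.00218). Itga6 read 174 and 240.4 CPM with TEV and 475 and 493 CPM with TEV plus reserpine (1.22 ± 0.15, adjusted p = 0.00222). Itgb4 went from 3.75 and 4.79 CPM to 11.6 and 10.4 CPM (1.36 ± 0.18, adjusted p = 0.0029). All 3 had both reserpine libraries above both TEV libraries. Itga1 was also higher (0.50 ± 0.11, adjusted p = 0.0164). Itga3, which had risen with TEV, was lower with reserpine, at 592 and 572 CPM (-0.75 ± 0.07, adjusted p = 0.00121). The ratio of Itga3 to Itga6 per kb was 1.10 and 1.03 with TEV plus reserpine, between the values of the other groups. Itga7 had an estimated count of 3.65e-05 in TEV plus reserpine replicate 1, which rounded to 0, and 2.70 CPM in replicate 2. It was not called (adjusted p = 0.432), and Itga11, at 0.581 and 0.574 CPM, was not called either (adjusted p = 0.514).

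**Figure D4:**
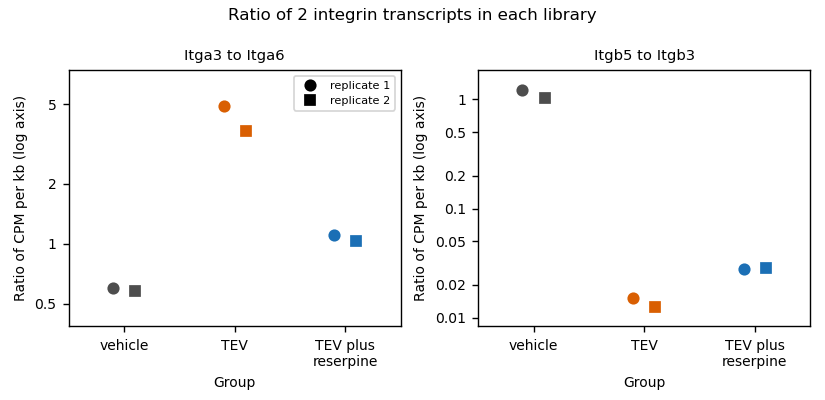
Ratio of Itga3 to Itga6 and of Itgb5 to Itgb3 within each library, in CPM per kb of transcript on a log axis. The first ratio is highest with TEV (4.93 and 3.66) and near 1 with TEV plus reserpine, and the second is at most 0.0286 in the vesicle libraries against 1.22 and 1.03 in vehicle.

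Among the RGD-binding chains, Itgb5 read 6.88 and 7.21 CPM with TEV plus reserpine, 2.70-fold above TEV alone (1.43 ± 0.12, adjusted p = 0.000842). Itgb3 read 433 and 444 CPM (0.38 ± 0.08, adjusted p = 0.0137). Itgav went the other way, to 149 and 144 CPM (-0.59 ± 0.15, adjusted p = 0.0232). Itgb5 and Itgb3 were thus higher and Itgav lower than with TEV alone. Itga8 read 11.03 and 6.34 CPM and was higher (1.37 ± 0.34, adjusted p = 0.0231). Itga5 read 662.5 and 620.1 CPM and was not called (0.24 ± 0.10, adjusted p = 0.124). Itgb1, at 1722 and 1851 CPM, was not called (adjusted p = 0.486), and one of its reserpine libraries lay between the TEV values. Itgb8 read 0.0447 and 0.287 CPM, with the libraries far apart, and was not called (adjusted p = 0.294).

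Itga4 stayed at a high level, 113 and 129.8 CPM with TEV plus reserpine, and was not called against TEV (0.22 ± 0.14, adjusted p = 0.267). Itga9 read 18.7 and 31.55 CPM (-0.53 ± 0.26, adjusted p = 0.166). None of the 3 leukocyte chains was called, with Itgb7 at 0.134 and 0.373 CPM, Itgam at 0.223 and 0.689 CPM and Itgb2 at 2.10 and 1.87 CPM. The 9 macrophage and leukocyte markers summed to 29.3 to 30.4 CPM in this group. The fibroblast markers summed to 79.8 to 97.5 CPM, where 4 of 9 tested were higher than with TEV, and the pericyte and smooth muscle markers to 849.5 to 931 CPM. Their part in the member changes of this comparison was not tested.

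Tspan18 had the largest rise among the called members of this comparison. It read 11.8 and 18.7 CPM with TEV and 114 and 107 CPM with TEV plus reserpine, 7.14-fold higher (2.84 ± 0.20, adjusted p = 0.00052). Tspan13 read 16.1 and 15.2 CPM, 4.16-fold above TEV alone (2.06 ± 0.14, adjusted p = 0.000461). Tspan7 read 15.9 and 15.0 CPM (0.84 ± 0.11, adjusted p = 0.00276). These 3 tetraspanins, which had fallen with TEV, were higher in both reserpine libraries than in either TEV library. Tspan17 was higher too (0.69 ± 0.14, adjusted p = 0.0129), while Tspan11, without counts in either reserpine library and with 4 in TEV, allowed no fold.

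Of the tetraspanins that had risen with TEV, Tspan8 read 37.4 and 35.2 CPM and was higher still (0.53 ± 0.11, adjusted p = 0.0155). Tspan6 read 315 and 322 CPM and was lower (-0.40 ± 0.11, adjusted p = 0.035). Tspan31 read 87.9 and 91.5 CPM and was lower (-0.56 ± 0.08, adjusted p = 0.00417). So the risen tetraspanins did not share a direction under reserpine. Tspan5 at 71.6 and 66.4 CPM (adjusted p = 0.954), Tspan4 at 123 and 110.4 CPM (adjusted p = 0.369) and Tspan33 at 1.03 and 0.718 CPM (adjusted p = 0.107) were not called. Tspan9 was not called at 358.5 and 362 CPM (-0.08 ± 0.07, adjusted p = 0.37).

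Cd81 read 582 and 589 CPM and was higher than with TEV (0.45 ± 0.10, adjusted p = 0.0143), and Cd151 read 395 and 363 CPM and was higher (0.31 ± 0.08, adjusted p = 0.0328). Cd63 read 381 and 358 CPM and was lower (-0.41 ± 0.10, adjusted p = 0.0246), as was Tspan3 at 87.4 and 85.4 CPM (-0.45 ± 0.08, adjusted p = 0.0087). Cd81 and Cd151 were thus higher and Cd63 lower, and each of these calls ended when certain single libraries were left out. Cd82 read 66.4 and 62.0 CPM (adjusted p = 0.259), Cd9 read 161 and 151 CPM (adjusted p = 0.201) and Tspan14 read 60.5 and 39.4 CPM (adjusted p = 0.326), and none of the 3 was called.

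Leaving out 1 library ended the calls of 10 of the 20 members called here. Cd151 and Tspan6 were not called without any vehicle or reserpine library or TEV replicate 1 (adjusted p from 0.0582 to 0.155 and from 0.0538 to 0.128). Cd63, Cd81, Itga1, Itgav, Itgb3 and Tspan8 were not called without TEV replicate 1 or either reserpine library, at 0.0654 to 0.11 for Cd63, 0.0528 to 0.0628 for Cd81, 0.0626 to 0.0824 for Itga1, 0.0575 to 0.101 for Itgav, 0.0528 to 0.0677 for Itgb3 and 0.0518 to 0.0798 for Tspan8. Itga8 was not called without either TEV library or TEV plus reserpine replicate 1 (0.0761 to 0.102), and Tspan17 without TEV replicate 1 or TEV plus reserpine replicate 2 (0.0605 and 0.0688). The other 10, which were Itga2, Itga3, Itga6, Itgb4, Itgb5, Tspan3, Tspan7, Tspan13, Tspan18 and Tspan31, were called whichever library was left out.

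**Figure D5:**
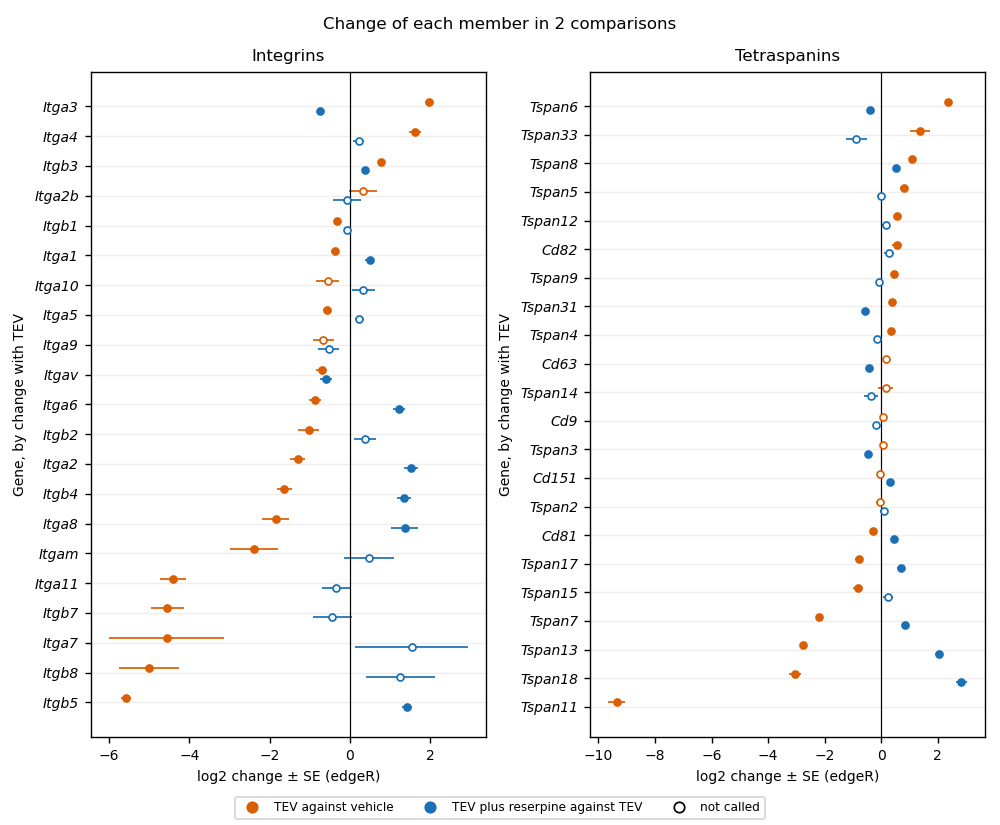
Log2 change ± SE of each member with TEV against vehicle and with TEV plus reserpine against TEV, with open symbols for changes that were not called. Tspan18, Tspan13, Itga2, Itgb4 and Itgb5 lie left of 0 in the first comparison and right of 0 in the second, and the 2 comparisons share the TEV libraries.

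Of the related lists, 9 of 19 tetraspanin partners were higher with TEV plus reserpine than with TEV (47.4%) and 1 was lower (5.26%, median 0.37), beside 15.7% and 16.0% of all genes. Sdcbp was the lower one (-0.64, adjusted p = 0.005), and Cdh5, the VE-cadherin of endothelial junctions, was higher (0.32, adjusted p = 0.00903). Of 34 adaptors and kinases, 7 were higher (20.6%) and 10 lower (29.4%, median -0.11), with Vcl, the vinculin of adhesion sites, higher (0.39, adjusted p = 0.0265). Of 25 matrix ligands, 7 were higher (28%) and 4 lower (16%, median 0.30), with Thbs1 higher (0.91, adjusted p = 0.0041). Of 10 counter-receptors, 4 were higher (40%) and 1 lower (10%, median 0.31), and Vcam1 was higher (1.20, adjusted p = 0.0241).

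The third comparison set TEV plus reserpine against vehicle, and each of its groups also serves in one of the other comparisons. Of the 21 integrins, 3 were higher (14.3%) and 9 lower (42.9%), against 19.1% higher and 19.9% lower over all genes. The fit of the 13098 genes of the filtered table called 2774 higher and 2825 lower. Called changes of at least 2-fold were found for 3 higher and 7 lower integrins and for 2 higher and 2 lower tetraspanins, against 6.94% and 10.6% of all genes. The libraries of the 2 groups did not overlap for 35 of the 43 members, against 73.5% of all genes that did not overlap. Without the members that passed through a single group, 3 integrins were higher and 5 of 16 lower, and 7 tetraspanins were higher and 4 of 20 lower. At 2-fold or more, 3 higher and 3 lower integrins were then left, and 2 higher and 1 lower tetraspanins. The integrin median was -0.38 and that of all genes -0.02. Of the 22 tetraspanins, 7 were higher (31.8%) and 5 lower (22.7%), with a median of -0.02. Without vehicle replicate 2 the lower tetraspanins were 3.

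The 3 higher integrins were the ones that had risen with TEV. Itga4 (1.85 ± 0.15, adjusted p = 0.000206), Itga3 (1.21 ± 0.08, adjusted p = 8.81e-05) and Itgb3 (1.16 ± 0.08, adjusted p = 0.000134) had both reserpine libraries above both vehicle libraries. The largest falls among the integrins were those of Itgb7 (-4.98 ± 0.45, adjusted p = 0.000316), Itga11 (-4.75 ± 0.35, adjusted p = 0.000158), Itgb5 (-4.15 ± 0.12, adjusted p = 4.95e-06) and Itgb8 (-3.74 ± 0.72, adjusted p = 0.00749). Itgb5 thus remained 17.8-fold below vehicle with reserpine. Without TEV plus reserpine replicate 1 the change of Itgb8 was -3.07, and without replicate 2 of that group, where the remaining library lay under the level of 3 counts, it was -5.69. Without that same replicate 2, Itgb7 gave -5.98 and Itgam -2.98.

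Itgav (-1.30 ± 0.15, adjusted p = 0.000858), Itga9 (-1.19 ± 0.26, adjusted p = 0.0125), Itgam (-1.91 ± 0.60, adjusted p = 0.0436), Itgb1 (-0.38 ± 0.07, adjusted p = 0.00668) and Itga5 (-0.33 ± 0.10, adjusted p = 0.0448) were also lower. Itgav was the member with a fall in all 3 comparisons. The 5 integrins that were lower with TEV and higher with reserpine than with TEV alone, Itga1, Itga2, Itga6, Itga8 and Itgb4, were not called against vehicle. Their changes against vehicle were 0.13 ± 0.11 for Itga1, 0.23 ± 0.18 for Itga2, 0.36 ± 0.14 for Itga6, -0.48 ± 0.32 for Itga8 and -0.27 ± 0.17 for Itgb4, which leaves room for differences of a size not resolved here. For Itga6, 4 of 13 alternative settings called a rise, with adjusted p between 0.00891 and 0.261. Itga7 (-3.03 ± 1.34, adjusted p = 0.118) and Itgb2 (-0.64 ± 0.27, adjusted p = 0.1) were not called.

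Among the tetraspanins, Tspan6 (1.96 ± 0.12, adjusted p = 7.45e-05) and Tspan8 (1.64 ± 0.12, adjusted p = 0.000151) were the furthest above vehicle. Cd82 (0.82 ± 0.18, adjusted p = 0.011), Tspan5 (0.78 ± 0.12, adjusted p = 0.00347), Tspan12 (0.75 ± 0.14, adjusted p = 0.00618), Tspan9 (0.38 ± 0.07, adjusted p = 0.00519) and Cd151 (0.28 ± 0.09, adjusted p = 0.0368) were higher by less than 2-fold. Tspan11 was at least 466-fold lower, taken against 3 counts over the reserpine group, since 1754 counts in vehicle stood against none. Tspan7 (-1.37 ± 0.11, adjusted p = 0.000188), Tspan13 (-0.69 ± 0.13, adjusted p = 0.00659), Tspan15 (-0.58 ± 0.17, adjusted p = 0.0355) and Tspan3 (-0.40 ± 0.08, adjusted p = 0.0089) were lower as well.

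Tspan18 (-0.21 ± 0.19), Cd81 (0.15 ± 0.09), Cd63 (-0.25 ± 0.10) and Tspan31 (-0.19 ± 0.08) were not called against vehicle, at adjusted p of 0.397, 0.244, 0.1 and 0.106. Tspan18, at 114 and 107 CPM with reserpine and 129.96 and 126 CPM in vehicle, was in both reserpine libraries slightly under both vehicle libraries. Tspan13 and Tspan7 were higher with reserpine than with TEV alone but stayed below vehicle, as Itgb5 did.

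Leaving out 1 library ended 7 of the 23 member calls of this comparison that carry a fitted change. Cd151 was not called without any vehicle or reserpine library (adjusted p from 0.0548 to 0.159), and Itgam and Tspan15 not without either vehicle library or TEV plus reserpine replicate 1 (0.111 to 0.15 and 0.111 to 0.162). Itga5 was not called without either reserpine library or vehicle replicate 2 (0.0976 to 0.224), Itga9 (0.0524) and Tspan3 (0.0613) not without vehicle replicate 2, and Cd82 not without TEV plus reserpine replicate 1 (0.0535).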

How the data were processed

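Per the labels' protocols, polyA RNA was extracted with Trizol, and TruSeq libraries were read single-end on an Illumina NextSeq. Per the submitters' processing notes, kallisto 0.45.0, R 4.0.0, edgeR and limma were used. The authors deposited estimated counts per gene symbol, in a raw and in a filtered table, and their values were identical where both held a gene (0 differing), so no normalization had been applied. The filtered table held the genes over 1 CPM in at least 2 libraries. The notes name the human build GRCh38, although the symbols are those of mouse, so no coordinates were taken from them. No source used here states the strand.

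Estimated counts of the raw table were rounded, filterByExpr left 15035 genes, and TMM factors ran from 0.941 to 1.04. One edgeR quasi-likelihood model held all 6 libraries in 3 groups, with 3 residual degrees of freedom, and Benjamini-Hochberg adjustment ran over all genes tested. Software was edgeR 4.0.16, DESeq2 1.42.0 and limma 3.58.1 in R 4.3.3. The main fit was also run on simulated counts whose spread was set beforehand, which says nothing on the spread of these libraries. Transcript length was that of the longest coding GENCODE transcript, matched for 43 members. Counting floors cover counting error only. Replicate numbers are those of the titles. The descriptions and table columns number both vesicle groups 2 and 3, so replicates 1 and 2 of those groups are columns 2 and 3. The labels give no batch. The series text can be read as reserpine for all cells, and the sample labels were followed.

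The members and gene lists were chosen with earlier results of these data known. Any member could be named. Library values were given for members called at 2-fold or more in either of the first 2 comparisons or with a mean of at least 50 CPM, and up to 4 genes of each related list, those of highest mean CPM, could be named. Further cell type markers were named to state values at 0. Alternatives were DESeq2, limma-voom, library totals alone, no filter, the genes of the filtered table, fits of only the 2 groups compared, a replicate block, and leaving out each library.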

Additional observations from a re-analysis of the deposited data

How the results depend on the processing

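No called member change reversed in any of the 13 settings. Of the 77 called changes with a fitted value, DESeq2 kept 76, limma-voom 77, library totals alone 73, no filter 76 and fits of only the 2 groups compared 74, and testing only genes of the filtered table kept 77. The lost calls were Itga7 (TEV against vehicle) with DESeq2, Tspan15 (reserpine against vehicle) without the filter, Cd81 and Cd82 (TEV) and Cd151 (reserpine against TEV) in fits of 2 groups, and Cd82 and Tspan4 (TEV), Tspan6 (reserpine against TEV) and Cd151 (reserpine against vehicle) with library totals alone. The fall of Itga7 with TEV was -6.08 with limma-voom and -5.60 with the replicate block. Libraries with the same title number did not deviate together (correlations of 0.0189, -0.0418 and 0.0237). With 2 libraries a group this cannot exclude a pairing by culture or batch, and a pairing by column number was not fitted. A fit with the replicate block, by title numbers, kept 68 of the 77 calls. Those lost were Cd81, Cd82, Itga1 and Tspan4 (TEV), Cd151 (reserpine against TEV), and Cd151, Itga5, Itgam and Tspan15 (reserpine against vehicle). Over all genes the block called 3438 higher and 3426 lower with TEV (3773 and 3703 without it), 1910 and 1930 with reserpine against TEV (2354 and 2403), and 2503 and 2591 with reserpine against vehicle (2879 and 2994). Between 60 and 70 calls were kept when 1 library was left out. With TEV against vehicle, the leave-one-out counts ran from 3 to 3 for higher and from 11 to 16 for lower integrins, and from 4 to 8 and 6 to 7 for tetraspanins. With TEV plus reserpine against TEV they ran from 4 to 7 and 1 to 2 for integrins, and from 3 to 7 and 2 to 4 for tetraspanins. Against vehicle they ran from 3 to 4 and 6 to 9, and from 5 to 7 and 3 to 6. Levels near 3 counts (Tspan11, Itgb8) limit the size of a fall.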
